A study of Oryza sativa with 27 samples.

Results

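The top part of the unpollinated rice ovary was compared with its bottom part. Ovaries of rice (Oryza sativa) that had not been pollinated were divided, and total RNA of the top 3/4 and of the bottom 1/4 was hybridised to separate Affymetrix rice arrays. The comparison takes the 3 arrays labelled as the unpollinated top part and the 3 arrays labelled as the unpollinated bottom part, 6 of the 27 arrays of the study. Each later group has 3 arrays, except the top part at 1, 2 and 3 days after pollination (DAP), with 2 each. The other 21 arrays hold the same 2 parts at 1, 2, 3 and 4 DAP, and they help to set the filter and the spread in the fit below. They are also used to ask whether a difference was still there. The labels name the tissue both as embryo sac and as ovary. Arrays of a group are called biological replicates in the labels, but plants and panicles are not given, so the p-values measure the spread between these samples. The labels give no treatment or genotype for either group, and the plants grew in paddy fields.

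Before pollination the grass ovary holds a single ovule with its nucellus and embryo sac, enclosed by the ovary wall, and sits on the short axis that also bears the lodicules and stamens. Some KNOX homeobox proteins, but not all, keep shoot and floral meristem cells undifferentiated, and OSH1 is the best known of these in rice. Floral organs are set by MADS-box proteins: B-class genes act in lodicules and stamens, C-class genes in stamens and carpels, and D-class genes in the ovule. The YABBY protein DROOPING LEAF (DL) is needed for carpel identity in rice.

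Each value is the brightness of a probe set relative to its own array, where 1 is the 75th percentile of that array. Changes are differences of log2(value + 0.13), top minus bottom, so a positive number means higher in the top part. All arrays entered a single limma fit, and a gene was called at a Benjamini-Hochberg adjusted p under 0.05. Arrays correlated at 0.919 to 0.929 within the top part, at 0.939 to 0.949 within the bottom part and at 0.792 to 0.923 between the parts. Top array 3 and bottom array 2 were the closest pair across the parts. Bottom array 2 also stood apart in some of its controls: the 18S ribosomal RNA control read 12.7 there, against 0.811, 0.403 and 0.522 in the top arrays and 0.203 and 0.380 in the other bottom arrays. Its ratio of the 3′ to the 5′ actin control was 15.1, against 6.98 to 10.3 on the other 5 arrays. The same ratios of its GAPDH (1.10) and EF1a (0.263) controls lay within the range of the other arrays. With the log2 of the 18S control as a covariate in the fit, 3072 genes were called, 1347 higher and 1725 lower in the top part. Without that covariate 2937 were called. The part the actin ratio plays in the results was not tested, but the call count without that array is given below. Because the parts are bulk tissue, fewer cells of a type and less RNA per cell cannot be told apart.

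The markers of ovary and ovule were measured in both parts. The 6 markers OsMADS3, OsMADS58, OsMADS13, OsMADS21, OsMADS6 and DL summed to 75.6 to 86.9 in the top arrays and to 65.5 to 71.3 in the bottom arrays. In that sum OsMADS6 ran against the other members, with means of 6.85 in the top part and 22.5 in the bottom part. The markers of lodicules and stamens (OsMADS2, OsMADS4 and OsMADS16) summed to 14.9 to 20.6 in the top arrays and to 45.5 to 110.6 in the bottom arrays. Of the 7 pollen and anther markers 4 were matched, and their sum was 0.474 to 0.976 in the top arrays and 0.522 to 0.641 in the bottom arrays. None of those 4 passed the filter on low values. Leaf markers (RBCS, CAB2R and an LHCP gene) summed to 31.0 to 54.8 in the top arrays and to 16.8 to 20.9 in the bottom arrays. Of the sums given here, only that of pollen and anther overlapped between the parts. These shifts stand beside the results that follow, and their part in them was not tested.

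Of 15275 genes tested, 2937 (19.2%) differed between the parts. In the top part 1287 genes (8.43%) were higher and 1650 (10.8%) were lower. These shares are the background for the counts of gene lists below, some of which lie near them. In terms of probe sets, 4391 of 29332 (15.0%) were called, 2006 (6.84%) higher and 2385 (8.13%) lower. The lower genes differed by more: their median log2 difference was -1.27, while that of the higher genes was 0.73, and the median over all genes tested was 0.05. Among called genes 9 were at least 4-fold higher in the top part and 356 were at least 4-fold lower. At 8-fold these counts were 1 and 98. Across 21 alternative settings, the number at least 4-fold lower ran between 182, with a pseudocount of 0.5, and 442, with a pseudocount of 0.05. The number at least 4-fold higher ran between 2 and 15. The count of called genes without one array ran between 1610, without bottom array 3, and 3320, without top array 3. It was 2583 without bottom array 2 and 1670 without top array 2. The higher genes varied most. They numbered 484 without bottom array 3, 566 without top array 2, 688 without top array 1 and 1693 without top array 3. They numbered 1036 without bottom array 1 and 1025 without bottom array 2. The lower genes ranged between 1104 and 1627. With only the 6 arrays in the fit 1330 genes were called, 321 higher and 1009 lower, and with the replicate number as a block over those arrays 1125, 221 higher and 904 lower. Without the 3 later arrays that stood apart in earlier results (bottom array 3 of 2, 3 and 4 DAP), 4118 were called, 1988 higher and 2130 lower.

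**Figure D1:**
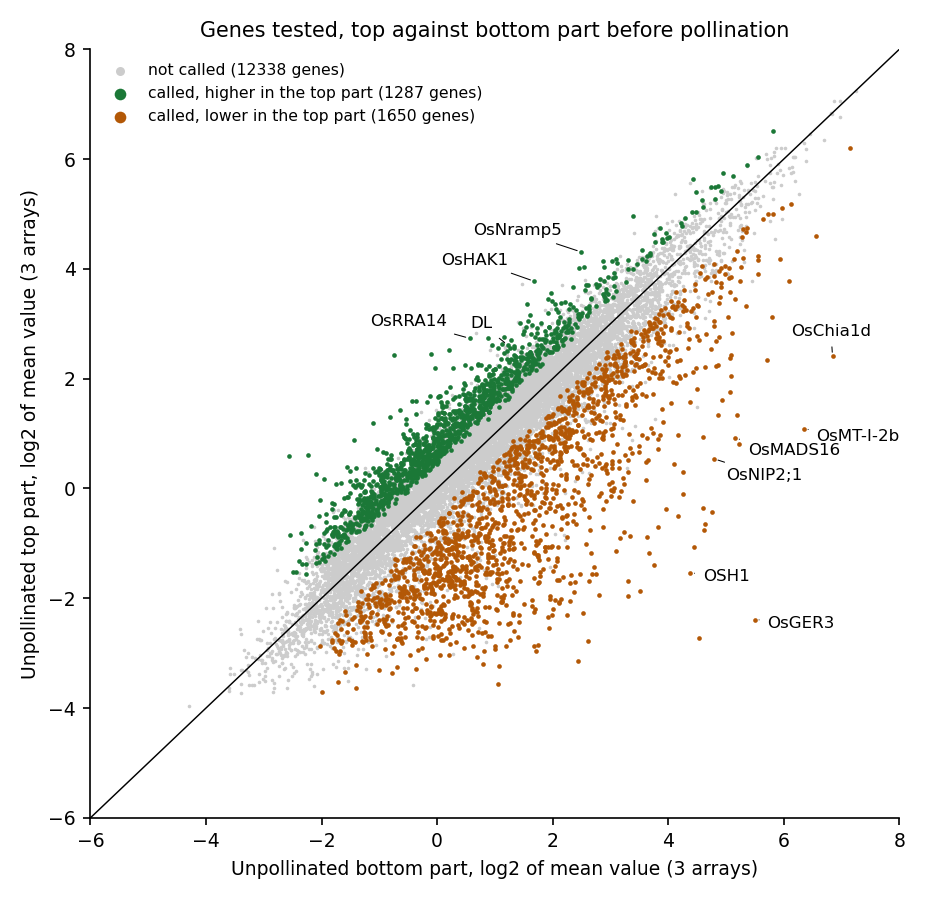
Each point is 1 of the 15275 genes tested, with the log2 of its mean value over the 3 unpollinated top arrays on the vertical axis and over the 3 bottom arrays on the horizontal axis. The 1287 genes called higher in the top part form a band close to the diagonal, whereas the 1650 genes called lower spread far below it, down to OsGER3.

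KNOX homeobox genes were lower in the top part. The list was drawn up from symbols and synonyms for KNOX and BELL genes, which need not all act in meristems. All 9 members tested were KNOX genes. Of these, none was higher and 7 were lower, with a median log2 difference of -2.23 beside 0.05 over all genes tested. At an unadjusted p under 0.05 the limma counts were also 0 and 7. Over all 15275 genes tested, 2729 were higher and 2495 lower at that unadjusted p in limma. Those counts are the background for the unadjusted counts of the lists below. OSH1 (LOC4333973), which maintains the shoot meristem, had values of 0.252, 0.383 and 0.399 in the top arrays, against 23.6, 16.7 and 22.3 in the bottom arrays. All 3 bottom arrays lay far above all top arrays. Over all genes tested, the arrays of the parts did not overlap in 36.1%, with the top part above in 19.2% and below in 16.9%. The 12 largest rises and the 12 largest falls, OSH1 among them, were named only from genes without overlap. Here and below, their lack of overlap was set by that rule and is no separate result. For OSH1 the difference of -5.46 ± 0.25 (SE) corresponded to a 44.2-fold lower value in the top part (adjusted p = 9.9e-12). HOS66 (LOC4331449) had 0.0913, 0.128 and 0.323 in the top arrays, against 2.63, 1.5 and 2.91 in the bottom arrays. Its groups did not overlap, and it fell by 3.02 on the log2 scale (adjusted p = 3.8e-06). OSH3 (LOC4333975) had 0.367, 0.264 and 0.453 in the top arrays, against 1.34, 3.95 and 5.34 in the bottom arrays. It fell by 2.72 (adjusted p = 3.9e-06), again without overlap. The other members are given because the list is short, not by the naming rule. OSH71 (LOC4337701) averaged 0.771 ± 0.109 in the top part and 5.82 ± 0.948 in the bottom part (SD, n = 3 each). OSH6 (LOC4325788) averaged 0.214 ± 0.037 in the top part and 1.51 ± 0.405 in the bottom part (SD, n = 3 each). OSH43 and HOS59 fell by 0.96 and 0.75. HOS58 (-0.29) and OSH45 (0.42) were not called. With a pseudocount of 0.5, OSH1 differed by -4.65, HOS66 by -2.04 and OSH3 by -2.08. Without one array the number of KNOX genes called lower lay between 5, without top array 2, and 7.

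Among 44 HOX, WOX, SPL, GRF, TCP and other meristem regulators, 10 were higher and 5 were lower, with a median of 0.12. Over all genes tested 8.43% were higher and 10.8% lower, so the lower count lies near that background. FON1 (LOC4342080), a receptor kinase that limits floral meristem size, had 0.780, 1.06 and 1.16 in the top arrays, against 8.17, 7.37 and 9.63 in the bottom arrays. The groups did not overlap, and FON1 fell by 2.92 (adjusted p = 6.8e-08). HOX6 (LOC4347647), a homeodomain leucine zipper gene, had 0.414, 0.330 and 0.410 in the top arrays, against 1.57, 2.57 and 2.37 in the bottom arrays, and fell by 2.14 (adjusted p = 1.4e-06). The growth-regulating factor genes OsGRF1 (0.87), OsGRF6 (1.31), OsGRF7 (0.93) and OsGRF8 (0.60) were among those higher, and were picked out after their values were seen. PCF8 (LOC4352799), a TCP factor, had 2.33, 3.91 and 1.83 in the top arrays, against 0.616, 0.844 and 0.469 in the bottom arrays. Its difference was 1.83 ± 0.24 (adjusted p = 1.6e-05). Without bottom array 3 or without top array 2, only 2 of these 44 genes were called higher, and 6 without top array 1 or bottom array 1.

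Among 27 MADS-box and YABBY genes, 4 were higher in the top part and 10 were lower. The most changed was OsMADS16 (LOC4342047), the B-class gene also called SUPERWOMAN1. Its values were 2.19, 2.09 and 1.37 in the top arrays, against 56.9, 19.7 and 30.6 in the bottom arrays. No arrays overlapped, and the value was 16.5-fold lower in the top part (log2 difference -4.05 ± 0.29, adjusted p = 5.7e-09). Of the other B-class genes, OsMADS2 (LOC4325001) had 12.1, 13.4 and 10.2 in the top arrays, against 45.2, 22.2 and 33.6 in the bottom arrays, and fell by 1.44 (adjusted p = 0.0024). OsMADS4 (LOC4338842) had 4.13, 5.16 and 3.34 in the top arrays and 8.50, 3.56 and 3.95 in the bottom arrays. Those groups overlapped, and its difference of -0.24 did not pass the test.

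Of the 6 markers of ovary and ovule, DL and OsMADS21 were higher in the top part, OsMADS6 was lower, and the C-class genes and OsMADS13 did not pass the test. DL (LOC4332058) had 5.61, 7.23 and 5.48 in the top arrays, against 2.23, 1.95 and 2.83 in the bottom arrays. Every top array lay above every bottom array, with a difference of 1.34 ± 0.29 (adjusted p = 0.0029). OsMADS21 (LOC4324888), a D-class gene, had 4.70, 4.73 and 4.58 in the top arrays, against 2.31, 2.28 and 1.75 in the bottom arrays, a difference of 1.11 (adjusted p = 0.0021). The related gene OsMADS13 (LOC4351753), which is required for ovule identity, had 20.2, 14.2 and 17.6 in the top arrays and 12.8, 11.7 and 20.6 in the bottom arrays. Its groups overlapped. The C-class genes OsMADS3 (0.85, adjusted p = 0.068) and OsMADS58 (0.84, adjusted p = 0.069) did not pass the test. OsMADS3 passed it without bottom array 3 (adjusted p = 0.035). OsMADS29 (LOC4328443), which acts in the nucellus and inner ovary, was higher by 1.09 (adjusted p = 0.028), but not without top array 1 or 2 or bottom array 3. OsMADS6 (LOC4330328) had 8.48, 6.53 and 5.53 in the top arrays, against 27.7, 19.1 and 20.6 in the bottom arrays, and fell by 1.70 (adjusted p = 0.00011). Outside the naming rule, OsYAB1 was higher by 1.24, whereas OsYAB5 fell by 1.35. Of the other MADS-box genes, OsMADS56 (LOC4349237) fell by 2.10 and OsMADS26 (LOC4344493) by 1.97, or by 1.26 with a pseudocount of 0.5.

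Outside the regulators, large falls were seen in genes of various functions. OsGER3 (LOC4344838), a germin-like protein of the extracellular space, had 0.218, 0.112 and 0.243 in the top arrays, against 39.6, 31.6 and 64.5 in the bottom arrays. Its log2 difference was -7.10 ± 0.75 (adjusted p = 1.0e-06), 137-fold lower in the top part. Its top values were near the pseudocount, and the difference was -7.53 with a pseudocount of 0.05 and -5.99 with 0.5. Germin-like genes form tandem families whose probe sets can share signal. OsGER5 (LOC4345763) of the same family was higher, with 0.598, 2.15 and 0.861 in the top arrays, against 0.152, 0.422 and 0.124 in the bottom arrays (difference 1.79, adjusted p = 0.00092, or 1.13 with a pseudocount of 0.5). The chitinase OsChia1d (LOC4338720) had 8.24, 7.29 and 0.365 in the top arrays, against 132, 84.7 and 128 in the bottom arrays. Top array 3 was far below the other 2 top arrays, and without it the difference was -3.84 in place of -5.17 ± 0.62 (adjusted p = 5.4e-06). It was -5.88 without top array 1 and -5.79 without top array 2. Of 8 chitinase genes tested, 2 fell and none was higher (4 and 0 at an unadjusted p under 0.05 in limma).

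The metal-binding metallothionein OsMT-I-2b (LOC4326409) had 2.75, 2.72 and 0.895 in the top arrays, against 85.4, 61.1 and 98.1 in the bottom arrays (difference -5.30 ± 0.40, adjusted p = 9.6e-09). The groups did not overlap, and 4 of the 6 metallothionein genes tested fell, with a median of -1.32. OsNIP2;1 (LOC4330713), the silicon influx channel also called Lsi1, had 0.823, 0.472 and 3.07 in the top arrays, against 26.1, 28.9 and 28.1 in the bottom arrays. The bottom arrays lay within a narrow range, and the difference was -4.51 ± 0.49 (adjusted p = 1.5e-06), or -5.20 without top array 3. OsNIP2;1 belongs to the aquaporin family, of which 8 of 19 genes tested fell and none was higher, with the same counts at an unadjusted p under 0.05 in limma (median -0.50). Without one array that number lay between 4, without top array 2 or bottom array 1 or 3, and 7. OsTIP4;2 (LOC4324277), a channel of the vacuole membrane, fell by 2.32 (adjusted p = 8.4e-06).

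OsRAA1 (LOC4326229), named for its role in root architecture, had 0.388, 0.118 and 0.921 in the top arrays, against 11, 26.1 and 28.1 in the bottom arrays (difference -5.30 ± 0.57, adjusted p = 1.2e-06). DRR2 (LOC4337750) had 1.84, 0.972 and 4.72 in the top arrays, against 34.7, 36.6 and 38.1 in the bottom arrays, and fell by 4.06, or by 2.92 as the mean of its probe sets. OsGLO3 (LOC4337048), a glycolate oxidase gene, had 0.594, 0.766 and 0.368 in the top arrays, against 7.24, 10.3 and 10.7 in the bottom arrays, and fell by 3.78. None of these 3 genes had overlapping groups, as the rule for naming the largest falls required. GRXC10 (LOC4351046), of the glutaredoxin family, and the zinc finger gene OsLOL4 (LOC4344587) fell by 3.81 and 3.67. With a pseudocount of 0.5, OsRAA1 differed by -4.49, GRXC10 by -2.97 and OsLOL4 by -2.92. ML (LOC4326471) had 1.74, 0.0939 and 0.505 in the top arrays and 3.53, 10.9 and 58.8 in the bottom arrays. Its bottom values spread widely, and its difference of -4.37 (adjusted p = 0.013) did not pass the test without top array 2 (-3.61) or bottom array 3 (-3.30). It was -5.14 without top array 1 and -5.31 without bottom array 1. Among genes without an informative name, LOC9271754 (-6.29, or -6.96 without bottom array 1) and LOC9266485 (-5.04) fell the most. With a pseudocount of 0.5 they differed by -4.97 and -4.43.

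**Figure D2:**
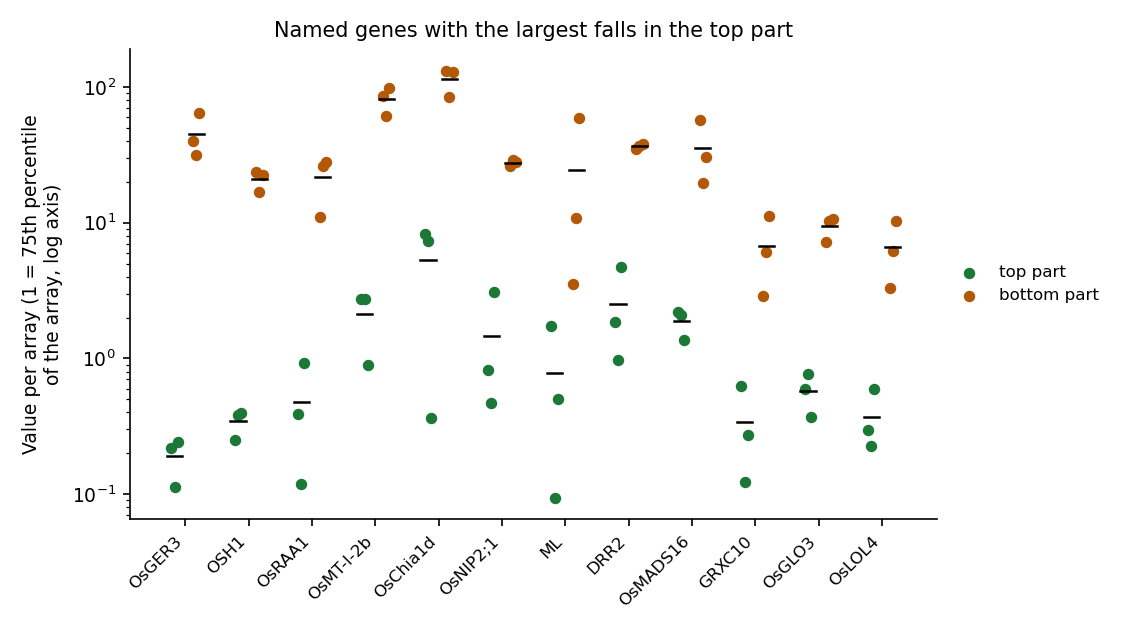
Values per array, on a log axis, of the 12 named genes with the largest falls in the top part, with the 3 top arrays left of the 3 bottom arrays and a line at each mean. In OsGER3 all top arrays are below 0.243 or at it, and all bottom arrays are at 31.6 or above.

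Some genes that loosen or build the cell wall were lower in the top part, while most were not called. Of 20 expansins, which loosen walls during growth, 4 fell and none was higher (median -0.64). At an unadjusted p under 0.05 in limma 4 were lower and 1 was higher. Over all 15275 genes tested, 2495 were lower and 2729 higher at that unadjusted p. OsEXPA29 (LOC4342086) had 0.224, 0.243 and 0.518 in the top arrays, against 8.66, 2.75 and 2.16 in the bottom arrays, and fell by 3.13 (adjusted p = 1.9e-06). The groups did not overlap. The difference was -2.54 without bottom array 1, the highest, and -2.39 with a pseudocount of 0.5. OsEXPB9 (LOC4349301) fell by 2.66 and OsEXPA1 (LOC4335222) by 2.70. Of 11 endoglucanases and xyloglucan enzymes 4 fell, while the median of the list was 0.02. Its most changed member was the endoglucanase OsGLU15 (LOC4345463), which fell by 3.27 (adjusted p = 4.3e-07) or, with a pseudocount of 0.5, by 2.42, followed by OsXTH8 (LOC4345019) with a fall of 2.32. Of 28 genes of cellulose and callose synthesis, 3 were higher and 7 were lower, the most being OsCslF6 (LOC4344719) with a fall of 1.68, which did not pass without top array 1 or bottom array 3. The lower count for that list was 1 without top array 2, 2 without top array 1 or bottom array 1, and 3 without bottom array 3. Of 23 phenylpropanoid and lignin genes 4 fell, OsCAD2 (LOC4328552) by 1.67 (adjusted p = 0.00011).

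Lipid transfer proteins, which carry lipids to the plant surface, fell in 4 of 5 genes tested (median -1.81). LTP2-B (LOC4351317) had 1.43, 0.881 and 5.84 in the top arrays, against 21.4, 15.0 and 8.35 in the bottom arrays (difference -2.73, adjusted p = 0.0057). Top array 3 came nearest to the bottom arrays, and the difference was -3.48 without it, and -1.94 as the mean of its probe sets. Its neighbour in name, LTP (LOC4351318), fell by 2.52, and LTP110-A (LOC4349601) by 1.81. Related lipid transfer genes can share signal on these probe sets.

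Sugar transport and sucrose-cleaving genes had 8 lower and 2 higher of 24 tested (median -0.47). The lower count was 4 with the replicate number as a block over the 6 arrays, and otherwise between 6 and 10. OsSWEET4 (LOC4329093), a sugar efflux carrier, had 11, 5.43 and 24.8 in the top arrays, against 36.0, 93.9 and 74.6 in the bottom arrays, and fell by 2.45 (adjusted p = 0.0015). The sucrose synthase OsSUS2 (LOC4340386) had 24.3, 14.9 and 15.4 in the top arrays, against 65.7, 38.3 and 79.3 in the bottom arrays (difference -1.71, adjusted p = 0.00030). Neither gene had overlapping groups. Another sucrose synthase, OsSUS3 (LOC4343910), was higher, with 3.33, 3.40 and 2.87 in the top arrays, against 1.10, 1.21 and 0.802 in the bottom arrays. Its groups were well apart, but its adjusted p was 0.042 and it did not pass the test without any one of the 6 arrays. Among 56 mineral, nitrogen and phosphate transporters, 13 were lower and 2 were higher. Without top array 2 the lower count was 7. The phloem sucrose transporter OsSUT1 (LOC4331775) fell by 1.26 (adjusted p = 0.018), and did not pass without top array 2 or bottom array 2 or 3.

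Auxin genes fell in 10 of 53 tested, with none higher and a median of -0.34. At an unadjusted p under 0.05 the limma counts were 16 lower and 1 higher. Aux/IAA genes encode short-lived repressors that auxin itself induces. The gene IAA1 at LOC4334069 had 2.44, 4.08 and 1.02 in the top arrays, against 28.4, 21.6 and 37.0 in the bottom arrays, and fell by 3.62 (adjusted p = 4.7e-07). IAA2 (LOC4326775) had 1.56, 0.265 and 1.51 in the top arrays, against 8.43, 9 and 19.2 in the bottom arrays, and fell by 3.48, or by 2.78 without top array 2. Both genes had groups that did not overlap, as had IAA18 (LOC4339365), which fell by 2.15. Without one array the auxin count stayed between 7 and 11.

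Of 29 jasmonate genes 5 fell and none was higher (8 and 1 at an unadjusted p under 0.05 in limma, median -0.75), but this count lay between 1, without top array 2, and 9, without top array 3, and was 2 without bottom array 3 and 3 without bottom array 2. OsJAZ4 (LOC4347000), a repressor of jasmonate responses, had 4.81, 3.30 and 6.13 in the top arrays, against 12.8, 10.8 and 12.2 in the bottom arrays (difference -1.35, adjusted p = 0.0024). Of 7 abscisic acid and dehydration genes 3 fell, OsABA8ox2 (LOC4345810), whose product breaks down abscisic acid, by 1.77 (adjusted p = 0.00020). Of 14 gibberellin and diterpene genes 1 fell, OsCPS (LOC4329013), the first committed enzyme of gibberellin synthesis, by 2.28 (adjusted p = 1.5e-05), or by 1.38 with a pseudocount of 0.5. Of 17 ethylene genes 2 fell, and of 11 brassinosteroid genes 1 was higher and 1 lower. Over all genes tested 8.43% were higher and 10.8% lower, so the gibberellin, ethylene and brassinosteroid counts lie near that background. Of 7 cell death proteases and cystatins, 4 were lower and 1 was higher (median -1.62). The lower count was 2 without top array 3 or bottom array 1 or 3. OC-II (LOC4339190), a cystatin that inhibits cysteine proteases, had 1.06, 1.03 and 1.17 in the top arrays, against 7.11, 7.41 and 9.88 in the bottom arrays, and fell by 2.75 (adjusted p = 1.8e-08). The small heat shock protein OsHsp22.3 (LOC4339231) fell by 2.19 (adjusted p = 7.3e-08), or by 1.29 with a pseudocount of 0.5, although 36 of 41 heat shock genes and factors were not called.

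Differences in the other direction were smaller. The largest among named genes was OsRRA14 (LOC4334066), named as a type-A response regulator of cytokinin signalling, with 7.28, 6.81 and 5.87 in the top arrays, against 1.37, 1.44 and 1.63 in the bottom arrays. Its groups were far apart, and the value was 4.21-fold higher in the top part (difference 2.07 ± 0.24, adjusted p = 3.4e-06). Of the 26 cytokinin genes tested 2 were higher and 3 lower, near the shares over all genes tested (8.43% and 10.8%). None was lower without top array 2 or bottom array 3. One of the lower genes was LOG (LOC4324445), an enzyme that activates cytokinin, which did not pass without top array 2 or bottom array 2 or 3. The potassium transporter OsHAK1 (LOC4335729) had 10.8, 9.61 and 20.6 in the top arrays, against 1.75, 4.63 and 3.26 in the bottom arrays (difference 2.06 ± 0.37, adjusted p = 0.00053). OsNramp5 (LOC4342859), which carries manganese and cadmium, had 17.7, 15.9 and 25.8 in the top arrays, against 4.15, 8.11 and 4.63 in the bottom arrays (difference 1.82, adjusted p = 0.0042). In both transporters each top array was above each bottom array, as the rule for naming the largest rises required.

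RBCS (LOC4351966), the small subunit of Rubisco, had 3.47, 3.27 and 2.35 in the top arrays, against 0.650, 1.16 and 0.529 in the bottom arrays (difference 1.84 ± 0.33, adjusted p = 0.00064). As the mean of its probe sets it differed by 0.73 (adjusted p = 0.024). Photosynthesis genes were higher in 2 of 7 tested, with a median of 0.89. The second was PORB (1.05), which did not pass without top array 1 or 2 or bottom array 1 or 3. The chlorophyll-binding protein gene CAB2R (LOC4324599) had 40.7, 30.8 and 22.1 in the top arrays, against 13.0, 15.4 and 13.2 in the bottom arrays. Its groups did not overlap, but its adjusted p was 0.061, and 0.041 without top array 3. OsAGO14 (LOC4342603), an Argonaute gene of the small RNA machinery, had 16.8, 17.2 and 14.7 in the top arrays, against 5.44, 6.56 and 4.44 in the bottom arrays (difference 1.56 ± 0.19, adjusted p = 5.0e-06). Argonaute and other small RNA genes gave 2 higher and 2 lower of 18 tested, near the shares over all genes tested (8.43% and 10.8%). The aspartic protease OsAsp1 (LOC4349962) was higher by 1.68 (adjusted p = 0.00048), and the brassinosteroid-response gene BU1 (LOC4340551) by 1.54 (adjusted p = 0.00088). Among genes without an informative name, LOC4349982 differed the most, with 3.23, 4.49 and 8.52 in the top arrays, against 0.241, 1.15 and 0.393 in the bottom arrays. It was the only called gene at least 8-fold higher (8.15-fold, adjusted p = 0.00011). With a pseudocount of 0.5 its log2 difference was 2.42 in place of 3.03. After pollination its difference was turned, at -4.20, -3.59, -1.55 and -1.17 at 1, 2, 3 and 4 DAP, and it was called lower in the top part at 1 and 2 DAP.

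**Figure D3:**
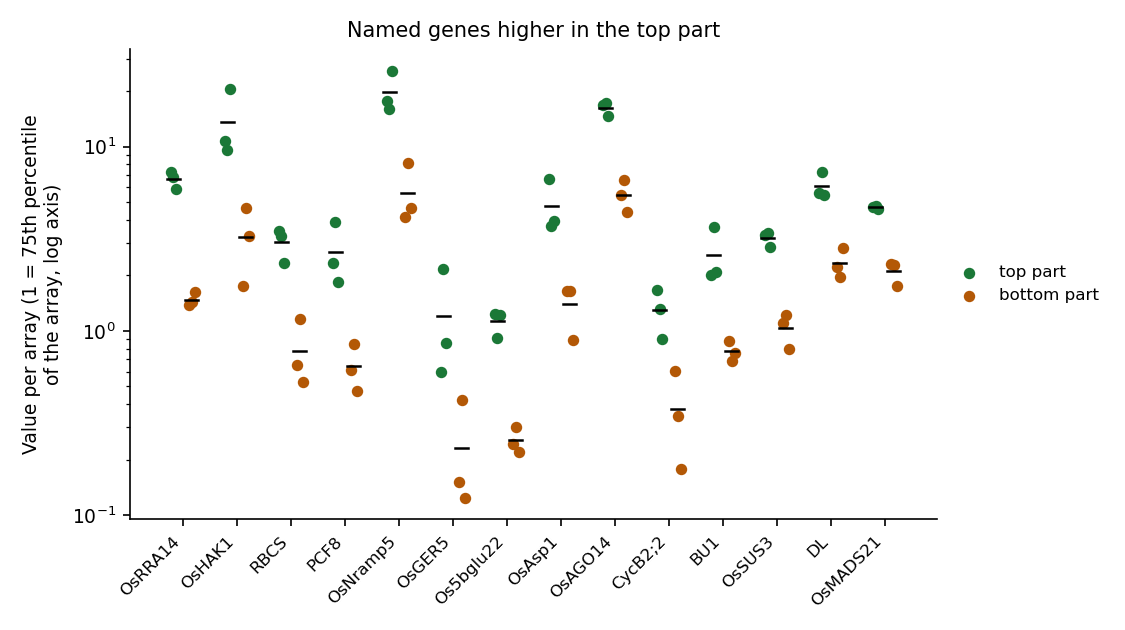
Values per array, on a log axis, of the 12 named genes with the largest rises in the top part and of DL and OsMADS21, with the 3 top arrays left of the 3 bottom arrays and a line at each mean. OsRRA14 lies at 5.87 to 7.28 in the top arrays and at 1.37 to 1.63 in the bottom arrays.

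Genes of cell division were modestly higher in the top part. All 31 DNA replication genes tested lay above 0, beside 8247 of all 15275 genes, and 12 were called higher and none lower (23 and 0 at an unadjusted p under 0.05 in limma, median 0.65). OsMCM3 (LOC4339099), a subunit of the replicative helicase, had 2.14, 4.74 and 1.65 in the top arrays, against 1.24, 1.43 and 0.660 in the bottom arrays. Top array 2 stood highest, and the difference of 1.18 (adjusted p = 0.034) did not pass the test without that array or without bottom array 1 or 3. Outside the naming rule, FEN1A was higher by 1.02 (adjusted p = 0.0013). The count of 12 fell to 1 without top array 2 or without bottom array 3, was 6 without top array 1 and 20 without top array 3. It was also 1 with only the 6 arrays in the fit. The median of the list stayed above that of all genes, between 0.49 and 0.87, in the 21 alternatives.

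Cyclins, CDKB2 and NACK gave 9 higher and none lower of 18 tested, the same as at an unadjusted p under 0.05 in limma, with a median of 0.55 that stayed between 0.36 and 0.68. The mitotic cyclin CYCB1-1 (LOC4327547) had 4.75, 3.15 and 2.20 in the top arrays, against 1.38, 1.25 and 0.690 in the bottom arrays (difference 1.48 ± 0.34, adjusted p = 0.0055). CDKB2-1 (LOC4346016), a mitotic kinase, had 3.81, 3.14 and 2.65 in the top arrays, against 1.32, 1.55 and 1.03 in the bottom arrays (difference 1.23, adjusted p = 0.0076). Neither gene had overlapping groups. CycB2;2 (LOC4342121) was higher by 1.55 (adjusted p = 0.015), but not past the test without top array 1 or 2 or bottom array 3. Without one array the cyclin count lay between 4, without bottom array 3, and 8. It was 5 without top array 2 and 6 without top array 1 or bottom array 1. The 5 histone genes tested were all above 0 and none was called, although 4 had an unadjusted p under 0.05 in limma. Without top array 3, 4 of them were called, and without bottom array 1, 3 were. Of 22 cytosolic ribosomal proteins 4 were higher and none lower (11 and 0 at an unadjusted p under 0.05 in limma, median 0.39), RPL30 (LOC4324441) with 26.1, 27.8 and 26.0 in the top arrays, against 12.7, 16.2 and 14.7 in the bottom arrays. That count was 1 without top array 2 and 2 without bottom array 3. Of 7 Polycomb and DNA methylation genes 2 were higher, the methyltransferases OsCMT3a (0.92) and OsDRM1 (0.50), and neither call held without top array 1 or 2 or bottom array 2 or 3.

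**Figure D4:**
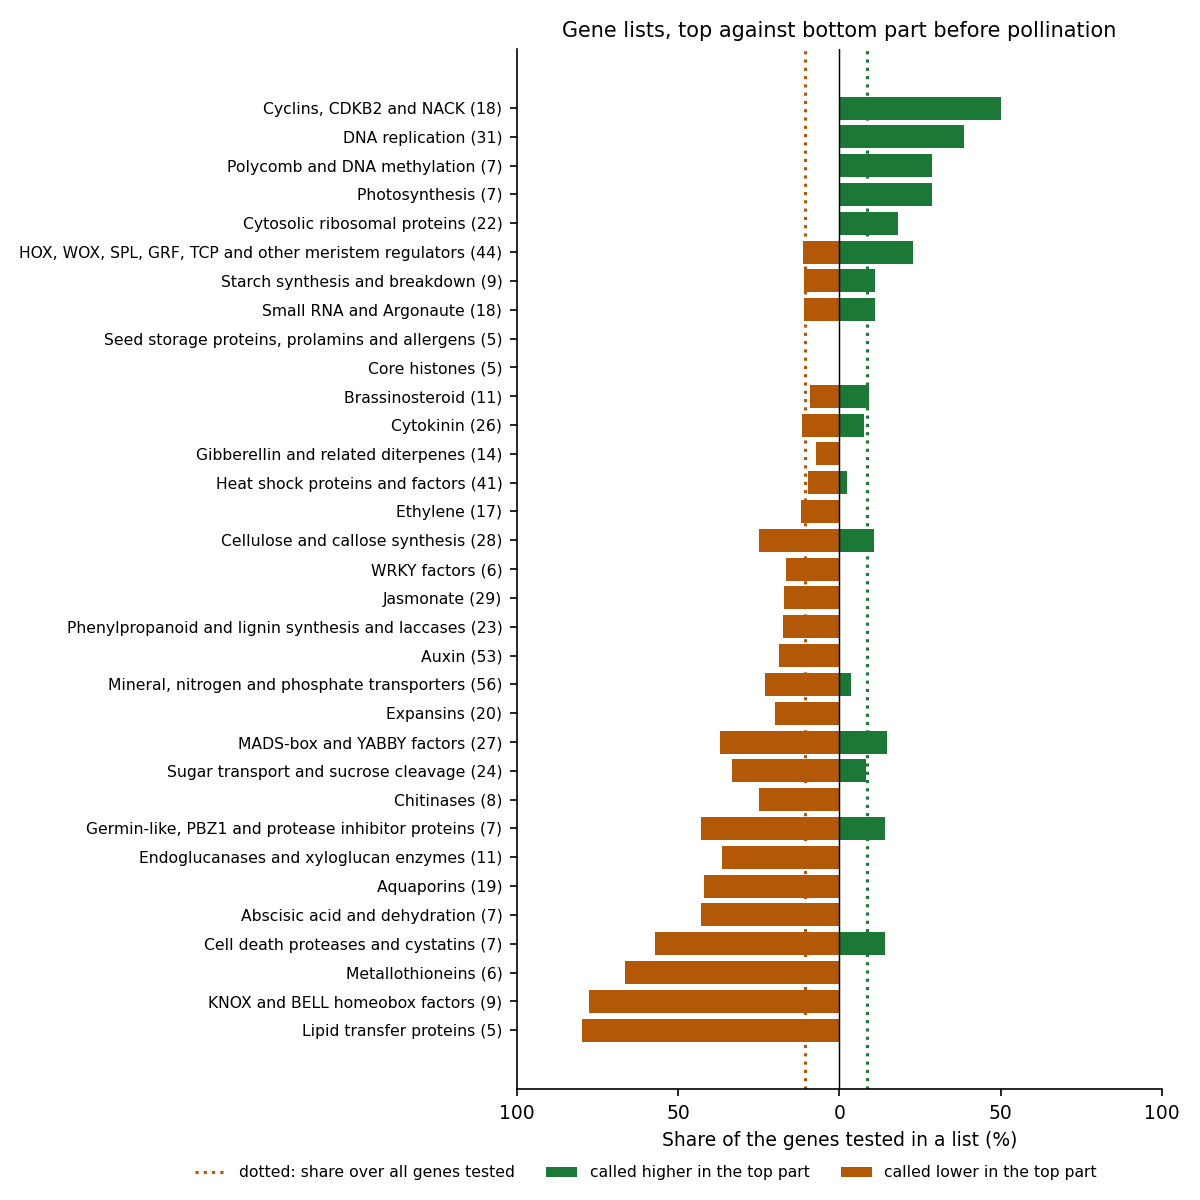
Share of the tested genes of each list that were called higher (to the right) or lower (to the left) in the top part, with the number tested in brackets and dotted lines at the shares over all genes tested (8.43% higher and 10.8% lower). Lipid transfer, KNOX and metallothionein genes lie at the lower end, and cyclins and DNA replication genes at the upper end. The list labelled KNOX and BELL held only KNOX genes.

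The differences between the parts were then looked for on the 21 arrays taken after pollination. None of them entered the mean of an unpollinated part, but they shared the filter and the estimate of spread with it. Of the 1287 genes higher in the unpollinated top part, 91.1%, 85.5%, 84.6% and 79.3% were above 0 at 1, 2, 3 and 4 DAP. Over all genes tested these shares were 58.4%, 56.3%, 54.7% and 53.8%. Of the 1650 genes lower before pollination, 88.1%, 75.6%, 66.5% and 71.8% were below 0 on those days, beside 41.6%, 43.7%, 45.3% and 46.2% over all genes tested. Of all genes tested, 5.03%, 1.76%, 6.72% and 2.71% were called between the parts on those days. By direction, 1.51%, 0.38%, 4.84% and 1.2% were higher in the top part and 3.52%, 1.38%, 1.87% and 1.51% were lower. Called again in the same direction on all 4 days were 5 of the higher and 51 of the lower genes. The top part had 2 arrays at 1, 2 and 3 DAP, so the calls of those days rest on fewer arrays than those before pollination. The share of all genes called on all 4 days is not given here.

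OSH1 remained lower in the top part at every later stage, by -5.98, -5.60, -4.75 and -4.35 at 1, 2, 3 and 4 DAP. OsMADS16 (-4.53, -3.83, -3.43 and -3.30), OsNIP2;1 (-4.24, -3.42, -2.55 and -2.56) and OsGLO3 (-2.39, -3.41, -2.91 and -1.90) were also called on all 4 days. The same held for FON1, HOX6, OsCPS, OsHsp22.3 and OsMADS2. Of the genes higher before pollination, OsNramp5 was called on all 4 days, with 2.02, 2.22, 2.46 and 2.67. OsGER3, in contrast, differed by -2.07, -1.13, -2.08 and -1.85 and OsChia1d by -2.10, -0.87, 0.07 and -0.27, none of them past the test. OsHAK1 differed by 0.34, 0.37, -0.23 and 0.26, also short of the test. OsChia1d had low values in both parts on those days. Its bottom means were 1.08, 0.343, 0.183 and 0.201 and its top means 0.152, 0.118, 0.202 and 0.146, near the pseudocount of 0.13. OsGER3, by contrast, averaged 30.7 in the top part and 87.6 in the bottom part at 4 DAP.

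As lists, KNOX genes had 6, 4, 3 and 4 of 9 called lower at 1, 2, 3 and 4 DAP, and all 9 were below 0 on each day. DNA replication genes had medians of 0.67, 0.52, 0.59 and 0.39 on those days, with 2 genes called, both at 3 DAP. Lipid transfer genes had none called on any later day, with medians of 0.15, -0.07, 0.74 and 0.09. At an unadjusted p under 0.05 in limma 1 of 5 was higher at 3 DAP, beside 2608 of all 15275 genes. The mean difference of the 4 later days was tested against that before pollination in the same limma fit, and 964 of all genes tested (6.31%) differed, 4.92% toward a higher and 1.39% toward a lower value in the top part. Of the genes lower before pollination 676 had a smaller or turned difference later and 2 a larger one. Of the genes higher before pollination 139 had a smaller or turned difference and none a larger one, also at an unadjusted p under 0.05 in limma. Genes were chosen on the unpollinated arrays that also enter this test, so the choice itself favours a smaller later difference.

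**Figure D5:**
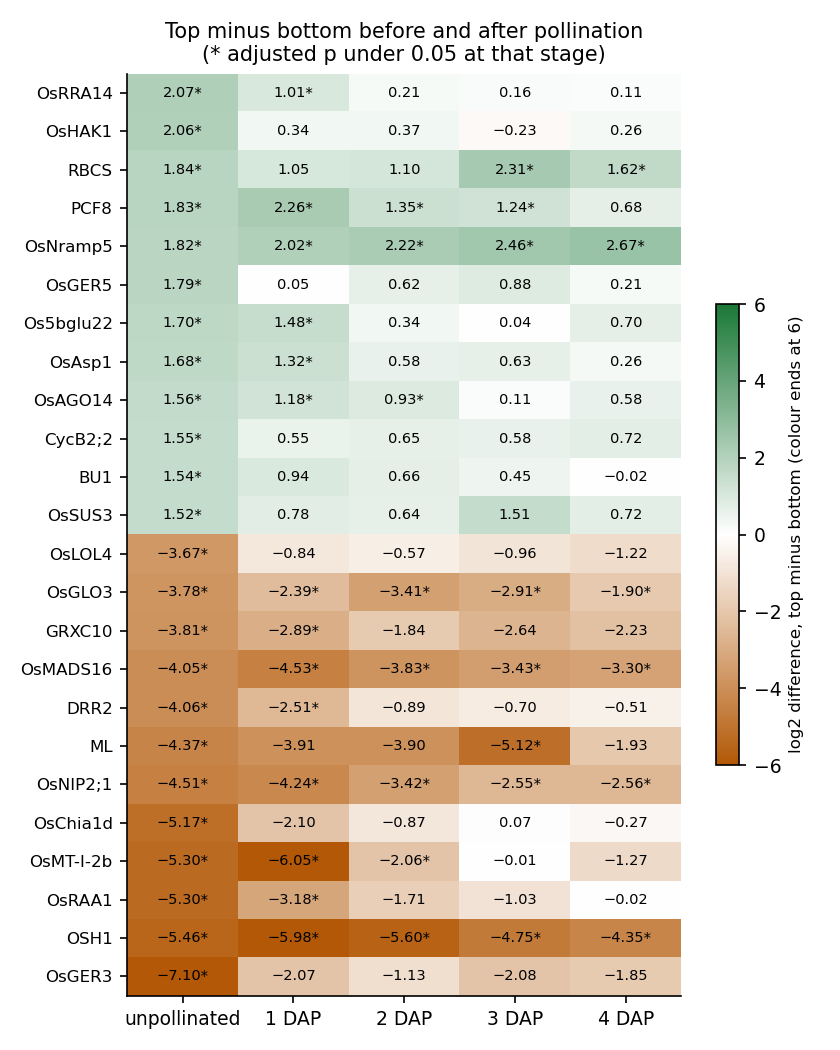
Log2 difference, top minus bottom, of the 24 named genes with the largest differences before pollination, in rows, at the unpollinated stage and at 1, 2, 3 and 4 DAP, in columns, with a star where the adjusted p was under 0.05. OSH1, OsMADS16, OsNIP2;1, OsGLO3 and OsNramp5 carry a star in every column.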

How the data were processed

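The deposited intensity of each probe set was used, 1 value for each of 57381 probe sets on an array. Software named per the submitters' processing notes is GCOS 1.3. The sources used here do not say how the authors summarised probes, corrected background and called detection, or which build the probes were designed on. As tested on the table, every array is linear and divided by its 75th percentile, and a low value does not state absence. Precision is limited by the number of arrays.

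Values entered as log2(value + 0.13), which understates changes at low values. Testing covered 29332 of 57258 rice probe sets, those whose mean across the 27 arrays exceeded 0.264, the median value of the table. The 123 control probe sets stayed out. limma 3.58.1 in R 4.3.3 (lmFit, and eBayes with an intensity trend) fitted 10 group means to all arrays, leaving 17 residual degrees of freedom, with a prior of 3.68. Tests were two-sided, p-values were adjusted by Benjamini-Hochberg across everything tested, and calls were made at 0.05. The script was tested on simulated data. Tables and plots used Python 3.11.15, numpy 2.4.6, pandas 2.3.3 and matplotlib 3.10.9.

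The platform annotation paired 22436 rice probe sets with a single gene (95 with several, 34727 with none). The brightest probe set represented its gene, leaving 15275 genes, 2156 of them with an informative name. Only 2 of 2187 genes with several probe sets had calls in opposite directions. Symbols and NCBI gene numbers come from RefSeq, and no positions are given.

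Named are the 12 largest rises and falls among called genes with non-overlapping arrays and an informative name, up to 3 called genes with the largest change from each list, 2 genes in each direction without such a name, and the markers. Lists are patterns on symbols and synonyms. Members, markers and lists were chosen with earlier results of these data known, and some patterns that took in unrelated genes were trimmed after their values were seen. Replicate numbers 1 to 3 occur in both groups. Deviations of same-numbered arrays correlated at -0.02, 0.08 and -0.04, so the numbers were not used as pairs. Some differently numbered arrays did share deviations: top 1 with bottom 3 at 0.56, top 2 with bottom 1 at 0.51 and top 3 with bottom 2 at 0.55. The others ran opposite: top 1 with bottom 2 at -0.57, top 2 with bottom 3 at -0.55 and top 3 with bottom 1 at -0.52. Deviations of 3 arrays from their own mean sum to 0, so these values are not independent. The labels do not say why they arose. Alternatives were other pseudocounts, filters, scalings, weights, blocks, a control covariate, fits of fewer arrays and leaving out each array.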

Additional observations from a re-analysis of the deposited data

Results flagged for a closer look

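The difference between the parts after pollination, averaged over 1 to 4 DAP, was tested against the difference before pollination in the limma fit. For 39 named genes it differed at a Benjamini-Hochberg adjusted p under 0.05. Each value is the later log2 difference minus the unpollinated one, both taken as top minus bottom. Of the genes higher in the unpollinated top part, the difference was smaller later or had turned for OsRRA14 (-1.70), OsHAK1 (-1.88), OsGER5 (-1.35), OsAGO14 (-0.86), LOC4349982 (-5.65) and LOC4329440 (-2.51). LOC4349982 had turned on each of the 4 later days. Of the genes lower in the unpollinated top part, the difference moved most toward 0 or past it for OsGER3 (5.32), OsChia1d (4.38), OsRAA1 (3.82), OsEXPA1 (3.55), OsGLU15 (3.34), IAA1 (3.31), LOC9271754 (3.29), OsEXPA29 (3.01), OsMT-I-2b (2.95) and DRR2 (2.91). It moved by less for LTP (2.85), LTP2-B (2.79), OsLOL4 (2.77), OsEXPB9 (2.48), OsTIP4;2 (2.28), OsABA8ox2 (2.28), LTP110-A (2.24), OC-IV (2.17), OsXTH8 (2.14) and LOC9266485 (2.03). The remaining moves toward 0 or past it were those of OC-II (1.82), OsMADS26 (1.66), OsSUT1 (1.58), OsSWEET5 (1.57), LIP9 (1.56), Cht1 (1.55), OsJAZ4 (1.53), OsMADS56 (1.44), OSH3 (1.42), FON1 (1.04), OsBAK1-7 (0.86) and OsHsp22.3 (0.80). Among these, the mean later difference lay past 0 for OsSUT1 and OsJAZ4. The B-class gene OsMADS2 (-1.20) was lower in the top part before pollination by 1.44, and its difference was larger later. The genes were named for their unpollinated difference, which favours a smaller later value. In some of them both parts had low values later. At 4 DAP the top and bottom means were 0.206 and 0.245 for OsEXPA29, and 0.147 and 0.193 for OsGLU15. Others stayed bright in both parts, such as IAA1 with 21.4 and 27.7.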

How the results depend on the processing

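Counts here are of probe sets. Of 4391 called, 2006 were higher and 2385 lower in the top part. The counts called, higher and lower were 2682, 1148 and 1534 with each array scaled to its median, 1916, 481 and 1435 with only the 6 arrays in the fit, and 1622, 321 and 1301 with the replicate number as a block over those 6 arrays. With the block over all arrays they were 4423, 1996 and 2427. By deviations from the group means, no array correlated best with the array of its own number in the other part. Without bottom array 3 of 2, 3 and 4 DAP, which stood apart in earlier results, 6135 were called, 3029 of them higher. Without one unpollinated array the count lay between 2415 and 5038, that of higher probe sets between 835 and 2561 and that of lower ones between 1576 and 2477. Scaling to the median moved the median difference of all probe sets from 0.02 to 0.12. Of 102 named called genes, 61 were called in each alternative run, and none changed sign. These genes were named for large called differences, some of them only if their arrays did not overlap. Where arrays do not overlap, leaving out an array or changing the pseudocount cannot turn the sign. The lack of sign changes is therefore largely set by the choice of genes. The causes were not tested. With 3 arrays a group and no detection calls, small differences of genes with low values could not be resolved.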
